A study of Mus musculus with 2 samples.

Results

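The genes of the respiratory chain were described in 2 RNA libraries of mouse leukemia stem cells, the nuclear and the mitochondrially encoded genes side by side. Members were the protein-coding rows of both gene tables whose symbol starts with Ndufa, Ndufb, Ndufc, Ndufs, Ndufv, Uqcr, Cox4, Cox5, Cox6, Cox7, Cox8, Atp5 or mt-, together with Sdha, Sdhb, Sdhc and Sdhd. This took in 106 of 21474 protein-coding genes, 93 nuclear and 13 mitochondrial. By complex there were 51 genes of complex I, 4 of complex II, 9 of complex III, 23 of complex IV (to which Ndufa4 and Ndufa4l2 were assigned) and 19 of complex V. The prefixes also take in 8 assembly factors of complex I, the tissue isoforms of complex IV and Atp5s, a factor related to ATP synthase. They leave out Cyc1 of complex III, which is given with the mobile carriers.

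The respiratory chain passes electrons from NADH and succinate through complexes I, II, III and IV to oxygen and pumps protons across the inner mitochondrial membrane, and complex V, the ATP synthase, uses the returning protons to make ATP. Mitochondrial DNA encodes catalytic or membrane subunits of every complex except complex II, and all other subunits are encoded in the nucleus and imported. Mitochondrial mRNAs are cut from long transcripts of each strand of the circular genome, so neighbouring genes are transcribed together. Erythroid cells depend on mitochondria for heme synthesis and lose them as they mature.

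Per the labels the cells carried Friend virus, which is a mouse retrovirus that causes erythroleukemia, and bore the surface proteins Kit, CD34, Sca1 and CD133, the last 2 of which are encoded by Ly6a and Prom1. Their source was adult mice of 10 to 12 weeks, males and females pooled, and strains able to yield such cells must carry the sensitive allele of Fv2. Both libraries belong to the same group and are numbered as biological replicates 1 and 2, with different biosamples and a common donor record. There was no uninfected or other control group, so no condition is compared and no p-value is given. Differences between the libraries are described as such, and their spread may be partly technical.

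Expected counts summed to 23575315 (replicate 1) and 22541765 (replicate 2). The labelled cell type was checked against markers. Of 4 sort markers 2 (Kit and Ly6a) reached 1 TPM in both libraries, and the list summed to 5.12 TPM in replicate 1 and 3.48 TPM in replicate 2, with Cd34 at 1.80 and 0.27 TPM and Prom1 at 3 counts and 0 counts. Erythroid markers reached 1 TPM in 9 of 9 genes and summed to 89883 and 153884 TPM. Macrophage markers did so in 5 of 6 genes (917 and 1247 TPM in sum) and B lineage markers in 4 of 4 (688 and 279.8 TPM). The sort markers were thus present at low levels or nearly absent beside genes of other cell types, and the cells are named here only as labelled. In such bulk RNA, fewer cells of a type and less RNA per cell cannot be told apart, and the part of these other cell types in the levels given here was not tested.

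Several mitochondrial genes have nuclear copies so alike that reads cannot be placed with certainty, and the sequences are shown because the values of these genes turn on them. The copies lie on chromosome 1 of mm10, between 24611535 and 24616197, as 7 annotated unprocessed pseudogenes on the minus strand, of which 5 match the mitochondrial reading frame in every aligned base. The pair of mt-Co2 (subunit II of cytochrome c oxidase) and Gm28661 is identical over 681 of the 684 bases of mt-Co2, and likewise the copy of mt-Co3 lacks only the last annotated base. The 3′ ends are given 5′ to 3′ on the strand of each gene, with the bases that the annotated copy lacks in capitals.
mt-Co2, chrM:7637-7696, plus strand: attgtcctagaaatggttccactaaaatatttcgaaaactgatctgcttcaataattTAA
Gm28661, chr1:24614885-24614941, minus strand: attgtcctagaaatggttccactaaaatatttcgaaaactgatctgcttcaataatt
mt-Co3, chrM:9331-9390, plus strand: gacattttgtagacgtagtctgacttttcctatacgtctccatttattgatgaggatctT
Gm28437, chr1:24613189-24613247, minus strand: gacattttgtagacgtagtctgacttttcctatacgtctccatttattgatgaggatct
mt-Atp6, chrM:8548-8607, plus strand: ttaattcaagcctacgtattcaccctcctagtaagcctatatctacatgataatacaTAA
Gm10925, chr1:24613974-24614030, minus strand: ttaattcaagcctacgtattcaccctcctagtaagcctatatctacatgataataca

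The copy of mt-Nd3 (a membrane subunit of complex I) carries 1 substitution over 345 aligned bases. It is T3C, counted from 1 at the first base of mt-Nd3, with the base of mt-Nd3 first and that of the copy second. The first 60 bases of each are shown with that base in capitals.
mt-Nd3, chrM:9459-9518, plus strand: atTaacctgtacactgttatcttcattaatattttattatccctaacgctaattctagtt
Gm28438, chr1:24613060-24613119, minus strand: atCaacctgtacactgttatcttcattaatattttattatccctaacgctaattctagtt

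Respiratory chain genes were widely detected. In both libraries 92 of 106 members reached 1 TPM, a level per transcript length relative to all rows, or 82 of 93 nuclear and 10 of 13 mitochondrial members, beside 41.6% of all protein-coding genes. The median of the mean level was 40.8 TPM for the nuclear members and 15.4 TPM for all protein-coding genes at 1 TPM or more in both libraries. The nuclear members together made up 1.53% of TPM (replicate 1) and 1.77% (replicate 2). Mitochondrially encoded members held 3.89% and 0.786%. The nuclear share differed little between the libraries, while the mitochondrial share was lower in replicate 2. Across 75 nuclear subunits Spearman's rho between the levels in the libraries was 0.802, beside 0.914 across 11712 protein-coding genes. These are genes of the same libraries and not replicates. The subunits had mean levels from 0.60 to 3058 TPM. No set of other genes with like levels was compared, so the 2 values of rho do not rank the subunits against other genes.

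The libraries were compared gene by gene as a log2 ratio of replicate 2 over replicate 1 of expected counts, the estimated numbers of fragments, after TMM scaling in edgeR. On this scale equal counts give 0.50, as for Ndufa4l2 with 49 counts in each library. Genes were called apart where the exact 95% interval of the ratio, which covers counting error only, lay wholly past 2-fold. Among nuclear members with 20 or more counts, 12 of 87 were higher in replicate 2 and 21 of 87 higher in replicate 1. Among all protein-coding genes tested these shares were 8.84% and 14.5%. The median log2 ratio was −0.17 for nuclear members and −0.04 for all genes. Scaling by total counts moved the median of all genes to −0.47, and under it 5 nuclear members were higher in replicate 2 and 27 higher in replicate 1. The called split thus shifted toward replicate 1 for members, as it did for all genes, where 370 and 2703 genes were called.

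**Figure D1:**
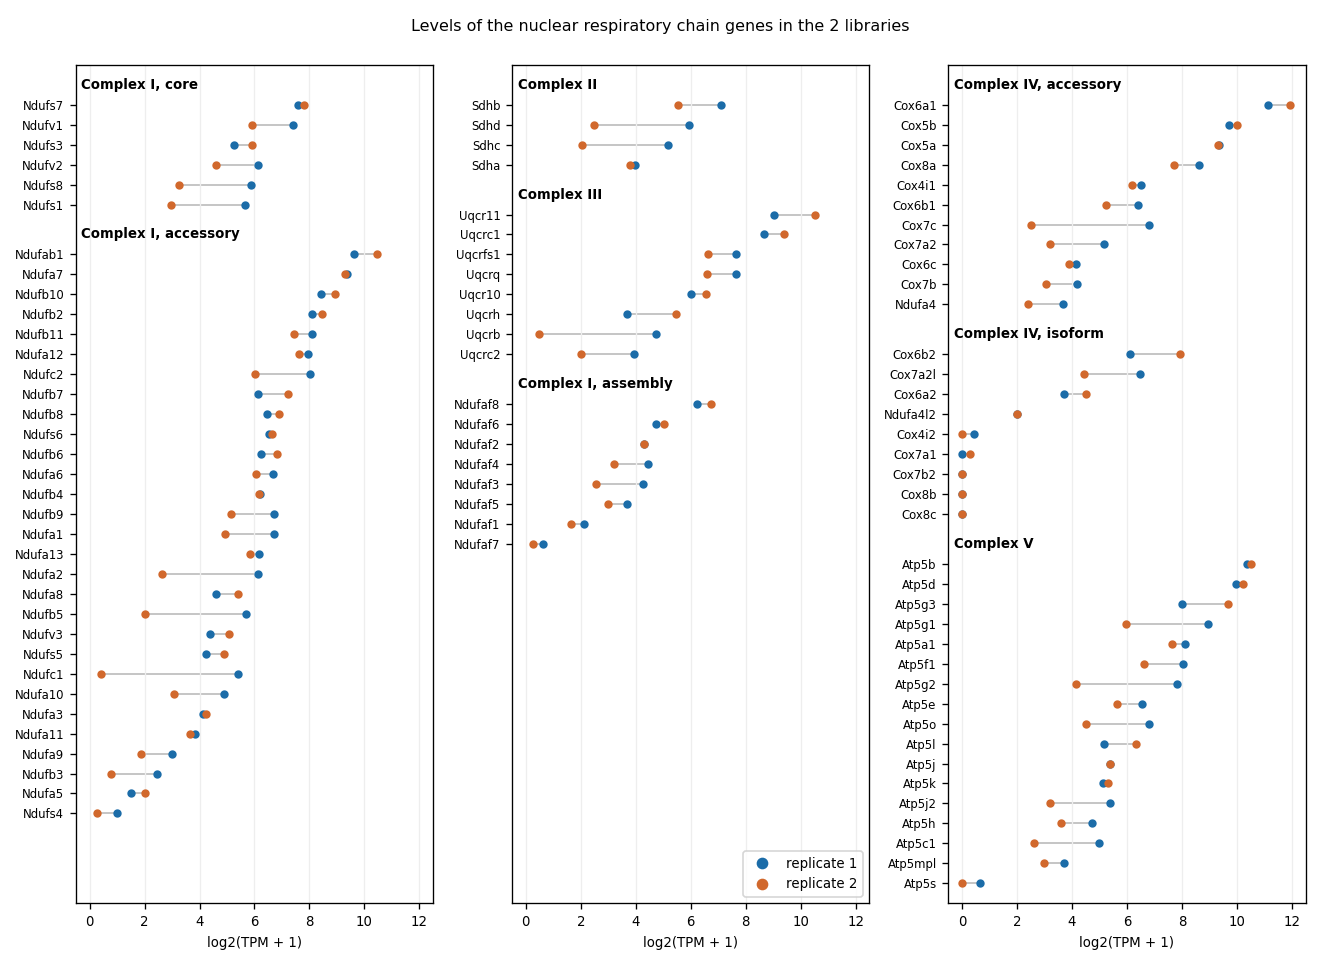
Levels of 92 of the 93 nuclear members as log2(TPM + 1) on the horizontal axis, by complex and role, with replicate 1 in blue, replicate 2 in orange and a line joining them. Cox6a1 is the highest gene in both libraries, and Ndufc1 (40.99 and 0.34 TPM), Uqcrb (25.9 and 0.38 TPM) and Cox7c (110.7 and 4.73 TPM) have the longest lines.

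Complex I takes electrons from NADH. Its nuclear core subunits carry the flavin and the iron-sulfur clusters, and 7 of 7 reached 1 TPM in both libraries. The core subunit Ndufs7 was at 189.6 TPM in replicate 1 and 219 TPM in replicate 2, and Ndufv1, which binds NADH, at 169.8 and 58.7 TPM. Ndufs8 was at 57.4 TPM in replicate 1 and 8.63 TPM in replicate 2, a log2 ratio of −2.24 (95% interval −2.51 to −1.99). Ndufs1 stood at 49.2 and 6.80 TPM, a log2 ratio of −1.63 (−1.91 to −1.36). The core genes Ndufs3 (37.4 and 58.5 TPM) and Ndufv2 (68.7 and 23.2 TPM) were called in neither direction. Ndufs8 and Ndufs1 were the core genes higher in replicate 1, 2 of 7, and none of the 7 was higher in replicate 2. Among all protein-coding genes tested, 14.5% and 8.84% were called in these directions.

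The accessory subunits of complex I surround the core. Of 29, 26 reached 1 TPM in both libraries, with 4 higher in replicate 2 and 7 higher in replicate 1. Across all protein-coding genes tested, 8.84% and 14.5% were called in these directions. The most abundant was Ndufab1, the mitochondrial acyl carrier protein, at 789 TPM in replicate 1 and 1402 TPM in replicate 2 (log2 ratio 1.15). Ndufa7 was level between the libraries at 666 and 634 TPM. Ndufb10 was at 338 and 487 TPM (1.12), Ndufb2 at 275 and 354 TPM and Ndufb11 at 270.8 and 171.5 TPM. Of these 5 genes, the highest accessory ones, Ndufab1 and Ndufb10 were called higher in replicate 2 under TMM scaling, and neither was called under total-count scaling or under scaling by the sum over nuclear protein-coding genes (nuclear-sum scaling).

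The other accessory genes called higher in replicate 2 were Ndufb7 (68.5 and 147.0 TPM, log2 ratio 1.56) and Ndufa8 (23.2 and 40.9 TPM, 1.30, not called under total-count or nuclear-sum scaling). Higher in replicate 1 were Ndufc1, Ndufb5, Ndufa2, Ndufb3, Ndufa10, Ndufc2 and Ndufa1, with log2 ratios from −3.89 for Ndufc1 to −1.36 for Ndufa1. Ndufb5 fell from 491 counts to 30 and Ndufa2 from 597 to 44. Ndufc1 had 156 counts in replicate 1 and 7 in replicate 2, and its effective length, averaged over the transcripts the authors' estimate used, went from 192.6 to 1028 bases, so its TPM (40.99 and 0.34) exaggerates the difference in counts. Ndufa10 was at 28.4 and 7.41 TPM, Ndufc2 at 256 and 63.9 TPM and Ndufa1 at 104.9 and 29.7 TPM.

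The 11 accessory genes between these and the lowest ones, Ndufa3, Ndufa6, Ndufa12, Ndufa13, Ndufb4, Ndufb6, Ndufb8, Ndufb9, Ndufs5, Ndufs6 and Ndufv3, were called in neither direction. Their levels lay between 16.4 TPM (Ndufa3, replicate 1) and 243.8 TPM (Ndufa12, replicate 1).

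The lowest nuclear structural genes of complex I were Ndufs4 (0.98 and 0.22 TPM), Ndufa5 (1.82 and 3.04 TPM), Ndufb3 (4.50 and 0.73 TPM), Ndufa9 (6.98 and 2.64 TPM) and Ndufa11 (13.2 and 11.5 TPM). Ndufs4, whose loss causes a known mouse model of complex I deficiency, rested on 27 and 6 counts. Ndufs4 was thus the lowest nuclear structural subunit of complex I in both libraries, while mean levels of its nuclear genes ran up to 1095 TPM for Ndufab1.

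The 8 assembly factors taken in by the prefixes help build complex I and are not part of it. Of these, 7 reached 1 TPM in both libraries. None was called higher in replicate 2 or in replicate 1, beside 8.84% and 14.5% of all protein-coding genes tested. Ndufaf8 was highest at 73.5 TPM in replicate 1 and 104.9 TPM in replicate 2, and Ndufaf2 was level at 18.9 and 18.8 TPM. Ndufaf6 was at 25.4 and 31.6 TPM, Ndufaf4 at 20.8 and 8.17 TPM, and Ndufaf3 at 18.4 and 4.89 TPM. The lowest were Ndufaf5 (11.9 and 6.91 TPM), Ndufaf1 (3.37 and 2.10 TPM) and Ndufaf7 (0.56 and 0.19 TPM). Their median log2 ratio of −0.02 was close to that of all genes.

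Complex II, succinate dehydrogenase, links the citric acid cycle to the chain and is built from nuclear genes alone. All 4 genes had fewer counts in replicate 2, and their median log2 ratio was −1.92, the lowest of the nuclear complexes. Sdhd, a membrane anchor, was at 59.9 TPM in replicate 1 and 4.52 TPM in replicate 2, a log2 ratio of −3.23 (−3.54 to −2.94). The other anchor, Sdhc, was at 35.4 and 3.17 TPM (−2.74, −3.07 to −2.44). The iron-sulfur subunit Sdhb was at 135 and 44.9 TPM (−1.10) and the flavoprotein Sdha at 14.5 and 12.8 TPM (−0.92), and neither was called apart, although both were under total-count scaling. The anchors therefore differed more between the libraries than the catalytic subunits. The TPM of Sdha hid part of its difference, with 779 and 292 counts, since its effective length changed from 2719 to 1148 bases.

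Complex III passes electrons from ubiquinol to cytochrome c. Its 8 nuclear members fell on both sides, with 3 higher in replicate 2, 2 higher in replicate 1 and 3 called in neither direction. Calls toward replicate 2 and replicate 1 were made for 8.84% and 14.5% of all protein-coding genes tested. Uqcr11, a small accessory subunit, was at 525 TPM in replicate 1 and 1484 TPM in replicate 2, a log2 ratio of 1.97 (1.91 to 2.02). The core protein Uqcrc1 was at 407 and 680 TPM (1.26), and Uqcrh, the hinge protein, at 11.9 and 43.6 TPM (2.38, the highest ratio of any member). Uqcrc2, the partner of Uqcrc1 in the enzyme, was on the opposite side at 14.2 and 3.05 TPM (−1.93). Uqcrb, a small accessory subunit, had 206 counts (25.9 TPM) and 3 counts (0.38 TPM), a log2 ratio of −5.39 with an interval from −7.89 to −4.04.

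The remaining complex III genes lay between these. The Rieske iron-sulfur protein Uqcrfs1 was at 201 and 97.4 TPM (−0.55), Uqcrq at 199 and 95.7 TPM (−0.96), and Uqcr10 at 64.1 and 92.2 TPM (0.99). Genes for subunits of the same enzyme thus had ratios on either side of 0 under TMM scaling. With scaling by total counts Uqcrc1 was no longer called, and Uqcr11 and Uqcrh still were.

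Complex IV, cytochrome c oxidase, reduces oxygen. Its 11 common nuclear subunits reached 1 TPM in both libraries, and Cox6a1 was the most abundant nuclear member of the whole chain at 2225 TPM in replicate 1 and 3891 TPM in replicate 2 (log2 ratio 1.29, and not called under total-count scaling). Cox5b was at 848 and 1025 TPM, Cox5a was level at 645 and 640 TPM, and Cox8a was at 389 and 206.8 TPM. Cox4i1 was at 91.2 and 71.9 TPM and overlaps on the same strand the gene Gm20388, to which 3816 and 3420 counts were assigned. Cox7c stood apart from the others at 110.7 TPM (868 counts) and 4.73 TPM (36 counts), a log2 ratio of −4.08 (−4.62 to −3.61).

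The lower common subunits were Cox6b1 (82.8 and 36.9 TPM), Cox7a2 (34.6 and 8.29 TPM, called higher in replicate 1 at −1.57), Cox6c (16.8 and 13.7 TPM), Cox7b (17.0 and 7.30 TPM) and Ndufa4 (11.7 and 4.30 TPM). Ndufa4l2, the form of Ndufa4 known to rise in hypoxia, was at 3.0 and 3.01 TPM. Cox7a2l, which joins complexes III and IV into supercomplexes, was at 86.9 and 20.6 TPM (−1.58, higher in replicate 1). Cox7a2 and Cox7a2l, which are related in sequence, were thus both higher in replicate 1.

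Of the tissue isoforms of complex IV, most were absent or rare, and Cox6b2 and Cox6a2 were the exceptions. Cox7b2, Cox8b and Cox8c had 0 counts in both libraries, where 3 counts, the limit a count of 0 allows, would be 0.371 to 0.682 TPM. Cox4i2, the lung form, had 4 counts and 0 counts, and Cox7a1, a muscle form, 0 and 1. Cox6b2, known as the testis form of Cox6b1, was at 68.5 TPM in replicate 1 and 240.5 TPM in replicate 2, a log2 ratio of 2.30 (2.17 to 2.44). It made up 45.3% of the summed TPM of Cox6b1 and Cox6b2 in replicate 1 and 86.7% in replicate 2. Of 6 other testis genes 5 (Tnp1, Prm1, Prm2, Ldhc and Pgk2) had 0 counts in both libraries, and Tnp2 had 0 and 4.

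Cox6a2, the muscle form of Cox6a1, was at 11.9 and 21.6 TPM (1.33, not called under total-count or nuclear-sum scaling). Its whole length of 953 bases lies opposite the integrin gene Itgad, which had 1165 and 644 counts, and whether strand was used in counting is not given in the sources used here. Without strand, reads of this pair cannot be told apart. Of 6 other muscle and heart genes none reached 1 TPM in both libraries, and Myh7, Actc1, Tnnt2 and Mb had 0 counts. Against Cox6a1, the muscle form held 0.534% and 0.552% of the summed TPM, so this proportion was alike in both libraries.

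Complex V has a catalytic F1 part and a membrane Fo part. In F1, the catalytic beta subunit Atp5b was at 1315 TPM in replicate 1 and 1459 TPM in replicate 2 (log2 ratio −0.02), and the delta subunit Atp5d at 996 and 1201 TPM (0.68). The alpha subunit Atp5a1 was at 274 and 196.9 TPM (−0.46) and Atp5e at 92.2 and 49.1 TPM (−0.38). The gamma subunit Atp5c1, the rotating shaft, was at 30.3 and 5.19 TPM (−2.01) and was the F1 gene called apart, 1 of 5. Alpha and beta, which occur in equal numbers in the enzyme, differed in level in both libraries. Their TPM rests largely on transcripts that are not typed as coding, as described further on. By counts, the coding Atp5b-201 held 6404 and 2406, beside 4445 and 5590.5 for Atp5b-207. In replicate 1 the coding Atp5a1-201 and Atp5a1-202 held 2313 and 724 counts, beside 2657 for Atp5a1-204. In replicate 2 they held 32 and 580, beside 2154.

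The ring of c subunits, which turns as protons pass, is encoded by Atp5g1, Atp5g2 and Atp5g3, whose mature proteins are the same. Atp5g1 was at 493 TPM in replicate 1 and 60.8 TPM in replicate 2 (log2 ratio −2.39). Atp5g2 was at 226 and 16.7 TPM (−3.01). Atp5g3 was at 257 and 820.1 TPM (2.15). The genes went in opposite directions, and their sum was 977 and 898 TPM. Reads on annotated pseudogene copies of Atp5g1 and Atp5g2 are not in this sum. Among these copies were Gm10231 (118.6 and 0 TPM), Gm10175 (31.3 and 3.25 TPM) and Gm10039 (33.1 and 1.03 TPM). The share of Atp5g3 in this sum was 26.3% in replicate 1 and 91.4% in replicate 2. On transcripts typed protein coding, which held 43.6% and 47.4% of the TPM of Atp5g3, the sum was 832 and 466 TPM and the share of Atp5g3 13.5% and 83.4%. The sum was thus lower in replicate 2 on coding transcripts, while the shift toward Atp5g3 was present in both. All 3 genes were called apart under each scaling tried.

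Among the other Fo genes, Atp5l was higher in replicate 2 (35.1 and 78.7 TPM, 1.63, not called under total-count scaling). Atp5o, the stalk protein OSCP, was at 110.9 and 21.8 TPM (−2.01) and Atp5j2 at 40.8 and 8.20 TPM (−1.82), both higher in replicate 1. Atp5f1, subunit b, was at 261 and 97.9 TPM (−0.51). Atp5j (40.9 and 40.6 TPM), Atp5k (34.3 and 39.1 TPM), Atp5h (25.3 and 11.1 TPM) and Atp5mpl (12.2 and 6.95 TPM) were called in neither direction. Atp5s, which is not a subunit, had 15 counts and 0 counts. Of the tested nuclear genes of complex V, 2 of 16 were higher in replicate 2 and 5 of 16 in replicate 1. The shares of all protein-coding genes tested were 8.84% and 14.5%.

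**Figure D2:**
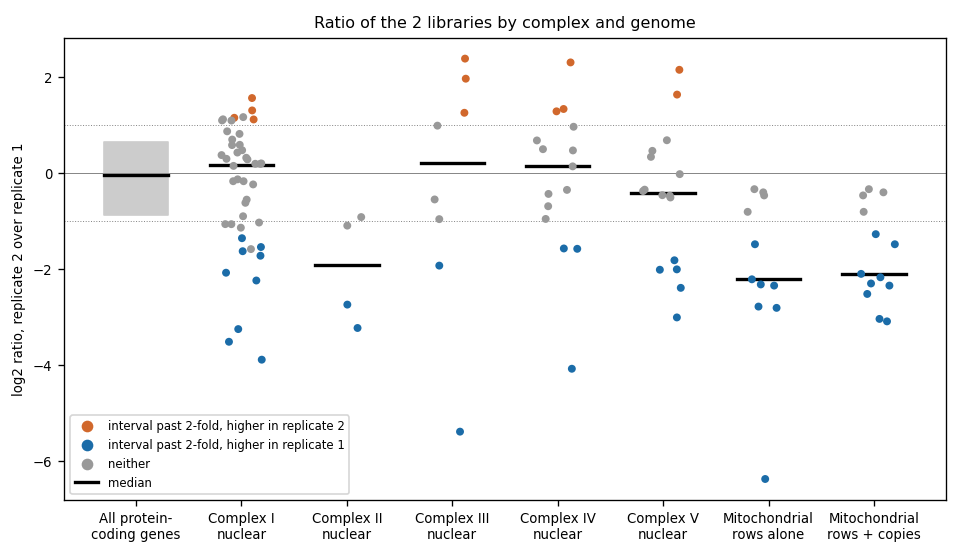
Log2 ratio of replicate 2 over replicate 1 (vertical axis) for each tested member, by complex and genome, with black lines at the medians and dotted lines at 2-fold. The grey box spans the middle 50% of all protein-coding genes, and the medians of complex II (−1.92) and of the mitochondrial genes with and without copies (−2.10 and −2.21) lie below it.

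By complex, the median log2 ratio of nuclear members was 0.17 for complex I, −1.92 for complex II, 0.22 for complex III, 0.14 for complex IV and −0.42 for complex V. The medians of complexes I, III and IV were −0.26, −0.21 and −0.29 under total-count scaling, so their sign depends on the scaling. They stayed above the median of all genes under TMM, DESeq2, total-count and nuclear-sum scaling. As TPM ratios complexes I and IV (−0.32 and −0.34) were slightly below it (−0.31) and complex III (−0.26) above it. Complex IV was also below it among genes with 100 or more counts (−0.11, beside 0.01 for all genes). Complexes II and V were below the median of all genes under each scaling tried and as TPM ratios. With few genes in complexes II and III these medians describe single genes more than a complex.

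Mitochondrially encoded genes were lower in replicate 2 as a group. In their own rows 7 of 11 tested genes were higher in replicate 1 and 0 of 11 higher in replicate 2, with a median log2 ratio of −2.21. Beside this, 14.5% and 8.84% of all protein-coding genes tested were called in these directions. The level per length was highest for mt-Atp8, a subunit of the Fo part, at 24876 and 3889 TPM, which was 64.0% and 49.5% of all mitochondrial TPM. This gene has 204 annotated bases and overlaps mt-Atp6 by 43 bases, and the authors' effective length for it was 71.6 and 63.6 bases. Its TPM thus depends strongly on that estimate, and without it the mitochondrial members held 1.40% and 0.397% of TPM.

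In the rows alone, mt-Cytb was at 2439 TPM in replicate 1 and 990.4 TPM in replicate 2, mt-Nd1 at 2321 and 1309.7 TPM and mt-Nd2 at 1085 and 584 TPM. Each of these was called in neither direction. Lower in replicate 2 by more were mt-Nd5 (704 and 178.3 TPM), mt-Nd4 (805 and 114 TPM), mt-Co1 (2112 and 218 TPM), mt-Atp6 (1925 and 297 TPM) and mt-Nd4l (2551 and 270.03 TPM).

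The rows of mitochondrial genes and of their nuclear copies shared reads in very different proportions. The row of mt-Co2 held 0 counts in both libraries, while its copy Gm28661 held 12775 and 1839. mt-Co3 held 642 and 5.29 counts and its copy Gm28437 24728 and 2108. mt-Nd3 held 0 counts and its copy Gm28438 448 and 55. For mt-Atp6 the row held 20862 and 3189 counts and the copy Gm10925 74163 and 5010, and the authors' posterior SD of the mt-Atp6 count in replicate 1 was 22430, about as large as the count. A 0 in such a row therefore does not show that the transcript was absent.

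The 7 copies on chromosome 1 together held 119168 counts in replicate 1 and 15553 in replicate 2, or 1.13% and 0.209% of TPM. For mt-Co1 the copies held 8.93% and 40.4% of the combined counts. For mt-Nd4l, copies held 13.3% and 70.1%, and for mt-Nd4 0.05% and 14.2%. Copies of mt-Nd5, mt-Nd6 and mt-Cytb held 0 counts, and mt-Nd1 and mt-Atp8 had no copy by this rule. The rule takes annotated pseudogenes only, so an unannotated copy would be missed. On the mitochondrial genome mt-Atp8 lies between mt-Co2 and mt-Atp6. Their copies on chromosome 1 leave a stretch between 24614651 (Gm10925) and 24614885 (Gm28661), and whether it holds a copy of mt-Atp8 was not tested. mt-Atp8 also shares 43 bases with mt-Atp6, so its counts are not shown to be free of copy reads. The division between row and copy differed between the libraries. The row of mt-Nd4l alone had a log2 ratio of −2.81 and −1.27 with its copy, mt-Co1 −2.78 and −2.17, and mt-Co3 −6.37 and −3.09. For mt-Atp6 the order was the opposite, with −2.21 alone and −3.04 with its copy.

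**Figure D3:**
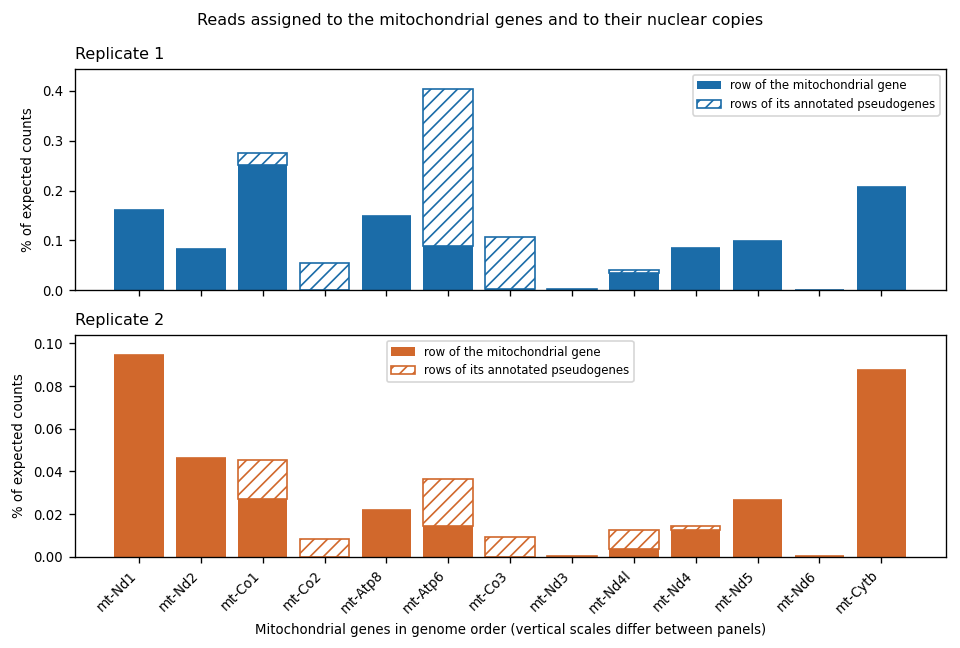
Percent of expected counts (vertical axis, with a different scale in each panel) in the row of each mitochondrial gene, filled, and in its annotated pseudogenes, hatched, in the order of the genes on the mitochondrial genome. In replicate 1 the highest bar is mt-Atp6 with its copy (0.404%), and in replicate 2 mt-Nd1 (0.0944%).

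With copies added, mitochondrial genes had 392476 counts (1.67% of the library) in replicate 1 and 90776 counts (0.404%) in replicate 2. Per count in nuclear members this was 2.25 and 0.507 counts. All 13 genes had a log2 ratio below 0 under TMM scaling, from −3.09 for mt-Co3 to −0.34 for mt-Nd1. Of them, 9 of 13 were called higher in replicate 1, beside 14.5% of all protein-coding genes tested. The difference was uneven along the genome. The 8 genes that follow each other from mt-Co1 to mt-Nd4 had 3.41 to 12.0 times as many unscaled counts in replicate 1. Outside them, mt-Nd1, mt-Nd2, mt-Nd5 and mt-Cytb had 1.78 to 3.95 times as many, and mt-Nd6 on the other strand 1.96 times. The ranges overlap, with mt-Nd5 (3.95) above mt-Nd4l (3.41). The 7 annotated copies on chromosome 1 are of the genes from mt-Co1 to mt-Nd4, each of them but mt-Atp8. The part of reads from these copies in the uneven difference was not tested.

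By complex, the mitochondrial subunits of cytochrome c oxidase had combined log2 ratios of −2.17 (mt-Co1), −2.30 (mt-Co2) and −3.09 (mt-Co3). Those of ATP synthase were −2.34 (mt-Atp8) and −3.04 (mt-Atp6). Those of complex I ranged widely, with mt-Nd1 at −0.34, mt-Nd2 at −0.40, mt-Nd5 at −1.48, mt-Nd4l at −1.27, mt-Nd4 at −2.10 and mt-Nd3 at −2.52. Cytochrome b, mt-Cytb, the mitochondrial subunit of complex III, was at −0.81, with 48741 and 19733 counts. Genes of complexes IV and V, which lie between mt-Co1 and mt-Co3, thus had lower ratios than mt-Cytb.

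The light strand carries mt-Nd6, which had 94 and 48 counts (12.3 and 6.39 TPM), the fewest of the 13 genes once copies are added. The mitochondrial ribosomal RNAs had 3035 and 867 counts (mt-Rnr1) and 5201 and 644 counts (mt-Rnr2), and the 22 tRNA rows had 0. Both ribosomal RNAs were thus also lower in replicate 2. These RNAs are not members. Both libraries were of polyA RNA. The part of that selection in the counts of mt-Nd6, the ribosomal RNAs and the tRNA rows was not tested.

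Nuclear members have copies as well. Of 93, 37 shared 30 or more words of 25 bases with an annotated pseudogene on the same strand, but in only 4 did the copies hold over 5% of the combined counts in either library. The most counts were in the copies of Ndufb4, an accessory subunit of complex I, whose row held 1210 and 1153 counts (73.1 and 69.9 TPM). Its processed pseudogene Ndufb4c, chr15:73809507-73809896 on the minus strand, held 13508 and 11890 counts, or 91.8% and 91.2% of the sum, so the level of Ndufb4 depends on where these reads belong. For Atp5g2 the copies Gm10231 and Gm10175 held 37.1% in replicate 1 and 16.2% in replicate 2. The others, which passed through pseudogenes sharing only a small part of their words, were Ndufab1 (6.86% and 1.39%) and Ndufaf7 (81.8% and 95.7%). For Ndufab1, Gm10499 held 488.5 and 116.7 counts and shares 44 of its 1781 words. Its closer copies Gm4459 (419 of 444 words) and Ndufab1-ps (386 of 444) held 4.55 and 26.67 counts in replicate 1 and 8.10 and 31.11 in replicate 2. Ndufaf7 had only 24 and 8 counts in its own row. Thap6, which shares 35 of its 4165 words with it, held 108 and 176.

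The gene level does not say which transcript was read. Over nuclear members, transcripts that the annotation types as protein coding made up 74.6% (replicate 1) and 71.1% (replicate 2) of TPM. Retained introns held 13.2% and 15.6%, processed transcripts 10.5% and 12.2%, and transcripts subject to nonsense-mediated decay 1.66% and 1.13%. Over all nuclear protein-coding genes the coding share was 68.8% and 59.0%. The share varied widely among members, with 49 of 82 above 90% coding in both libraries and 15 of 82 (18.3%) below 50% in both, beside 16.2% of all protein-coding genes. The share of members was near that background.

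Some of the most abundant genes were among those below 50%. For Atp5b, the 343-base processed transcript Atp5b-207 held 81.3% and 95.3% of TPM, so coding transcripts stood at 181.8 and 68.3 TPM of a total of 1315 and 1459 TPM. For Ndufab1, the retained-intron transcript Ndufab1-208 held 85.7% and 90.1%. For Atp5a1, Atp5a1-204, typed for nonsense-mediated decay, held 76.4% and 87.0%. In Ndufa12 the retained-intron transcript Ndufa12-202 held 99.3% and 94.6%, and in Ndufb2 the transcript Ndufb2-206 held 96.8% in both libraries. Short transcripts have small effective lengths, so a modest number of reads gives a high TPM, and the coding share of counts was 80.6% and 77.7%. By counts too, the retained-intron transcript exceeded the coding ones in Ndufa12 (1413 and 1063 beside 16.1 and 94.2). The same held for Ndufb2 (1521 and 1913 beside 76.5 and 61.7) and Ndufab1 (4147 and 7590 beside 2909 and 3523). The counts of Atp5b and Atp5a1 are given with complex V.

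**Figure D4:**
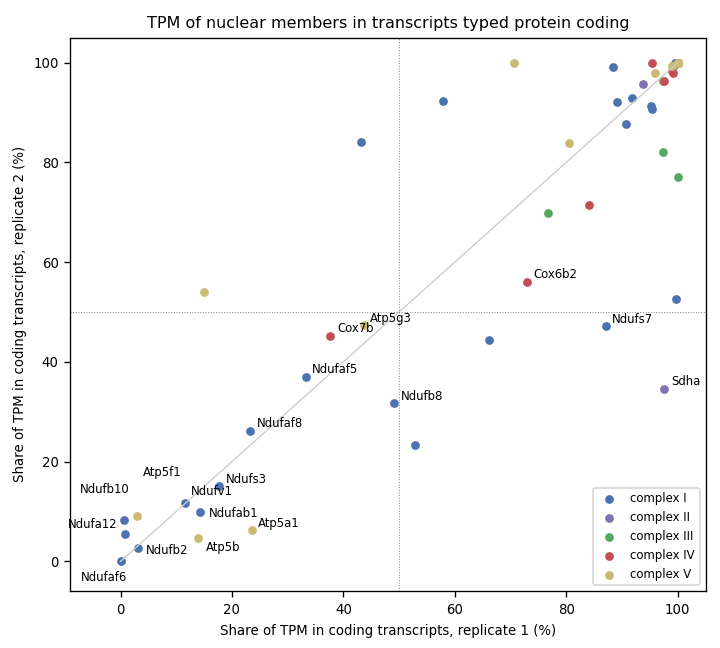
Percent of each nuclear member's TPM in transcripts typed protein coding, replicate 1 on the horizontal and replicate 2 on the vertical axis, for the 82 members at 1 TPM or more in both libraries, coloured by complex. Most points sit at the upper right, 15 lie below 50% in both libraries, and Sdha (97.6% and 34.6%) lies far from the diagonal. By counts, the coding transcript of Sdha held 243 of 292 in replicate 2.

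Among members at 1 TPM or more in both libraries, the leading transcript by TPM was the same in both for 48 of 60 with more than 1 transcript. Outside these it changed for Ndufc1, from Ndufc1-204 to Ndufc1-201. Within them it differed for Sdha, which was led by the coding Sdha-201 in replicate 1 (97.6%) and by the retained intron Sdha-202 in replicate 2 (58.4%). It also differed for Ndufs7, led by Ndufs7-201 (86.7%) and then by the retained intron Ndufs7-205 (49.0%). By counts the coding transcript led in both genes in replicate 2 as well. There Sdha-201 held 243 counts beside 44 for Sdha-202, and Ndufs7-201 held 1257 beside 628 for Ndufs7-205. Cox6b2 was led by the same coding transcript of 585 bases in both (59.5% and 52.8%), and its coding transcripts were at 49.9 and 134.9 TPM. On coding transcripts alone Cox6b2 thus still exceeded Cox6b1 in replicate 2 and not in replicate 1.

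Promoter sequences of RefSeq (GRCm38.p6, 250 bases before to 50 after the gene start) were matched to 76 of 93 nuclear members. They were searched on both strands for the 10-base palindrome of NRF1, a regulator of respiratory genes, which was found in 9.21% of these members, in 2.58% of genes at 1 TPM or more in both libraries and in 1.07% of all genes of the table. The motif AAGATGGCG of YY1 was found in 10.5%, 3.90% and 1.64%, and the ETS motif CCGGAAGT, of the kind bound by GABP, in 6.58%, 10.2% and 4.31%. None of the motifs is contained in another. A match is a string of letters and not a shown binding site.

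The 7 members with the NRF1 palindrome were Atp5g2, Atp5k, Cox6a1, Ndufa11, Ndufaf4, Ndufaf5 and Uqcrc1, and they did not move together. Cox6a1 (log2 ratio 1.29) and Uqcrc1 (1.26) were higher in replicate 2, Atp5g2 (−3.01) was higher in replicate 1, and the others were called in neither direction. The stretches of 60 bases around the palindrome, in capitals, are shown for those in which they lie before the gene start of both annotations, because Cox6a1 is the most abundant nuclear member and the others carry the same palindrome without being called apart; each runs 5′ to 3′ on the strand of the gene.
Cox6a1, chr5:115349086-115349145, minus strand: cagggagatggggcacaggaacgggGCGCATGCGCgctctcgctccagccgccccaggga
Ndufa11, chr17:56717677-56717736, plus strand: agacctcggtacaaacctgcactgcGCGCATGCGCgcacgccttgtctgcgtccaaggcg
Ndufaf4, chr4:24897945-24898004, plus strand: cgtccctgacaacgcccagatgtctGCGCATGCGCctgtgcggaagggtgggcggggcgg

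Genes that build, supply and regulate the chain were taken as lists. Their calls were made under TMM scaling only. Total-count and nuclear-sum scaling, which move ratios toward replicate 1, were not applied to the calls of these lists. Calls toward replicate 2 whose log2 interval begins near 1, such as Grsf1 (1.01) and Coq10a (1.04), may therefore depend on the scaling. Of 41 assembly factors outside the prefixes, 33 reached 1 TPM in both libraries. Of the 39 tested, 8 were higher in replicate 2 and 7 higher in replicate 1 (median log2 ratio −0.19). For this list and those that follow, 8.84% and 14.5% of all protein-coding genes tested were called in these directions. The most abundant were Timmdc1, which helps build complex I (69.0 and 50.9 TPM), Uqcc2 of complex III assembly (52.3 and 93.7 TPM) and Cox18, which inserts mt-Co2 into the membrane (81.0 and 33.5 TPM). Higher in replicate 2 were Sdhaf1, Uqcc2, Uqcc3, Cox11, Cox19, Pet100, Pet117 and Cmc2. Pet117 had 0 and 124 counts. Higher in replicate 1 were Foxred1, Tmem126b, Sdhaf3, Surf1, Cox16, Coa3 and Coa7, with Cox16 at 38.7 and 0.51 TPM.

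Of 16 mobile carriers and enzymes of coenzyme Q synthesis, 15 reached 1 TPM in both libraries. Cyc1, cytochrome c1 of complex III, was at 232 and 216 TPM (0.39), close to Coq4 at 249.6 and 217 TPM and above Coq9 at 87.9 and 108.3 TPM. Cycs, somatic cytochrome c, was at 7.73 and 3.86 TPM, with 457 and 43 counts (−2.90, higher in replicate 1), and its testis form Cyct had 0 counts. Coq3 was also higher in replicate 1 (11.2 and 2.79 TPM), and Coq5 (23.0 and 40.1 TPM) and Coq10a (1.99 and 3.73 TPM) were higher in replicate 2.

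Of 29 genes of mitochondrial DNA transcription, replication and RNA handling, 20 reached 1 TPM in both libraries. The mitochondrial transcription factor Tfam was at 9.79 and 3.60 TPM (−0.73) and the polymerase Polrmt at 53.9 and 54.8 TPM (0.01), and neither was called apart. The most abundant were Fastk (382 and 230 TPM), Pnpt1 (298 and 160 TPM) and the DNA polymerase Polg (124.2 and 135 TPM). Grsf1 (38.9 and 58.7 TPM), a protein of mitochondrial RNA granules, and Elac2 (29.4 and 47.7 TPM), which cuts tRNAs from mitochondrial transcripts, were higher in replicate 2. Mterf3 (13.0 and 2.05 TPM), Mgme1 (2.19 and 0.38 TPM), Mtpap (2.13 and 0.22 TPM), the mitochondrial polyadenylating enzyme, and Fastkd5 (1.59 and 0.09 TPM) were higher in replicate 1. Slirp and Tfb1m had 19 and 18 counts in replicate 1 and 0 in replicate 2.

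Among 10 regulators of mitochondrial biogenesis, Ppargc1a, the coactivator best known for it, had 4 counts and 0 counts, while Ppargc1b was at 18.3 and 21.1 TPM. Pprc1 was at 69.8 and 17.7 TPM and Gabpb2 at 7.01 and 2.34 TPM, both higher in replicate 1. Yy1 was at 41.4 and 104.0 TPM and higher in replicate 2, and Esrra at 66.8 and 110.7 TPM was called in neither direction. Of this coactivator family, Ppargc1b and Pprc1 were thus detected in both libraries and Ppargc1a was near 0.

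Of 20 citric acid cycle and pyruvate entry genes, 2 were higher in replicate 2 and 6 higher in replicate 1 (median −0.64). The shares of all protein-coding genes tested were 8.84% and 14.5%. Mpc2, a subunit of the mitochondrial pyruvate carrier, was at 49.0 and 58.5 TPM and was among those on the side of replicate 2. Mdh2 (508 and 128.1 TPM), Cs (29.1 and 7.85 TPM), Idh3a (23.9 and 4.63 TPM), Ogdh (77.9 and 10.7 TPM), Dld (4.83 and 0.65 TPM) and Suclg1 (60.1 and 2.19 TPM) were on the side of replicate 1. Dlst was the second most abundant at 248.5 and 300.7 TPM.

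Of 20 outer membrane, import and carrier genes all reached 1 TPM in both libraries, 0 were higher in replicate 2 and 5 higher in replicate 1 (median −0.49). Beside this, 8.84% and 14.5% of all protein-coding genes tested were called in these directions. The most abundant were Slc25a3, the phosphate carrier (433 and 459 TPM), the porin Vdac2 (434 and 315 TPM) and Timm50 (316 and 365 TPM). The 5 genes were Vdac3 (24.3 and 6.26 TPM), Timm23 (284 and 82.4 TPM), the ATP/ADP carrier Slc25a5 (65.1 and 12.3 TPM), Hspd1 (57.6 and 23.0 TPM) and Immt (96.9 and 13.3 TPM).

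The ratio of the libraries moved with base composition, in members as in other genes. Across 87 nuclear members Spearman's rho of the log2 ratio with transcript GC content was 0.359, beside 0.346 across 11609 other nuclear genes. These points are genes of the same libraries and not replicates. In the members of lowest GC (41.8% to 50.2%) the median log2 ratio was −0.92, and in those of highest GC (55.0% to 63.2%) it was 0.46. All genes in the same ranges had medians of −0.37 and 0.34. Mitochondrial members have 31.9% to 41.1% GC, below every nuclear member tested, and the part of GC content in their lower level in replicate 2 was not tested.

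**Figure D5:**
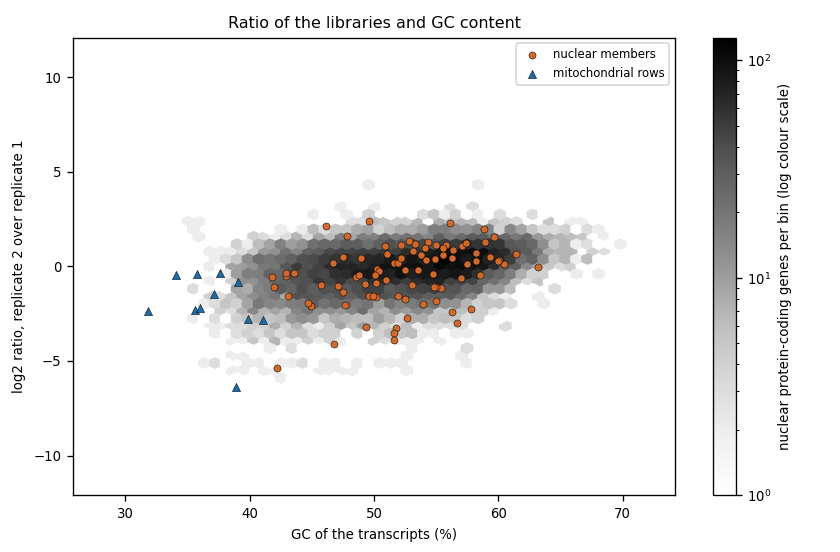
Log2 ratio of replicate 2 over replicate 1 (vertical axis) against the GC content of the transcripts (horizontal axis), with nuclear members as orange circles, mitochondrial rows as blue triangles and all tested nuclear protein-coding genes as grey bins on a log colour scale. Members follow the slope of the grey bins, and the mitochondrial rows lie at 31.9% to 41.1% GC and below 0.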

How the data were processed

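Paired-end sequencing of polyA RNA gave 2 libraries of 1 group. The authors deposited gene and transcript tables on mm10 with GENCODE M4 models, per the file headers and readme; which aligner and quantifier made them is not given in the sources used here. As deposited, expected counts, TPM and FPKM are estimates per row, transcript percentages within a gene are also deposited values, and their posterior SD, per the file headers a spread of the count, was used as a score of uncertainty. Of 69691 rows, 43346 carried an Ensembl identifier and 42462 matched GENCODE M21 of the same assembly, which gave symbols and types.

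Members and gene lists were chosen with earlier results of these data known. Named were all mitochondrial members, all of complexes II, III, IV and V, the 5 highest and 5 lowest structural genes of complex I, its assembly factors, members called apart and members at 0; of each list up to 3 most abundant, those called apart, and Tfam, Ppargc1a, Cyc1 and Cycs. Genes named beside these were chosen after their values were seen. Fastkd4 and Prorp were not analysed here. Values of 1 member and of 1 listed gene are not reported here, though both enter the counts and medians.

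Expected counts were rounded and scaled with TMM in edgeR 4.0.16 (R 4.3.3), with a prior count of 0.5; ratios have exact binomial 95% intervals for counting error only. The libraries differed with a common biological coefficient of variation of 0.537 over 11708 genes. Calls needed 20 counts over both libraries. The criterion was tried on simulated data that held counting error only. That trial therefore cannot tell how often genes are called through other variation between the libraries. Copies were annotated pseudogenes sharing 30 or more words of 25 bases. DESeq2 1.42.0 gave alternative size factors. Other alternatives were total-count and nuclear coding scaling, a TPM ratio with pseudocount 1, count and TPM minimums, posterior mean TPM, FPKM, 100 shared words and each library alone; coding transcripts alone and ratios with copies were added after seeing the data. Mitochondrial and copy sequences came from the reference transcripts and promoters from RefSeq (GRCm38.p6). Tables and plots were made in Python 3.11.15 (pandas 2.3.3, numpy 2.4.6, matplotlib 3.10.9, scipy 1.17.1).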

Additional observations from a re-analysis of the deposited data

How the results depend on the processing

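No paired analysis was possible because there was 1 group. Calls for the 98 tested members were the same with DESeq2 size factors, and no call changed direction under any scaling. With total-count scaling 84 calls were the same, 7 were lost (Atp5l, Cox6a1, Cox6a2, Ndufa8, Ndufab1, Ndufb10 and Uqcrc1) and 7 gained (Ndufaf3, Ndufb9, Ndufv2, Sdha, Sdhb, Uqcrq and mt-Cytb), leaving 5 members higher in replicate 2. With the nuclear protein-coding sum 6 were higher in replicate 2, in place of 12. These scalings and the TPM ratio moved the median log2 ratio of nuclear members from −0.17 to −0.60, −0.49 and −0.48, and that of mitochondrial members from −2.21 to −2.65, −2.54 and −2.68, which with copies added was −2.10. The median of all genes moved to −0.47, −0.36 and −0.31. The cause was not tested. The median TPM of mitochondrial members was 834.5, from 217.9 without replicate 1 to 1085 without replicate 2, and the nuclear median was 31.6 to 57.4. The mean nuclear share of TPM, 1.65%, was 1.91% with copies and 0.768% of expected counts. Members sharing words with a pseudogene numbered 48, and 31 at 100 words. On coding transcripts alone the median nuclear level was 26.5 TPM. The number of members at 1 TPM in both libraries was 69 to 98 over minimums of 10 and 0.1 TPM. Mitochondrial shares rest on reads that cannot be placed between the genomes, and 2 libraries limit every ratio.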
